A study of Mus musculus with 4 samples.

Results

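The genes described here are *Eda2r*, *Tnfrsf10b*, *Fas*, *Perp*, *Ei24*, *Aen* and *Pidd1*, 7 targets of p53 that act at a membrane or in cell death. They were chosen by name from the known targets of p53, with the levels of p53 targets in the same libraries already in view. Their differences between the groups are therefore a description, and no test is read from them. Of the 7 genes 6 have a row in the deposited table of 13577 genes. *Fas* has none and was not analyzed here.

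Bulk RNA-Seq of nasal process (NP) tissues, the swellings around the nasal pits that form the midface, was done on E11.5 mouse embryos with a kit that reads the 3′ end of transcripts. Of the 4 libraries, 2 are titled control and 2 are titled ca-*Acvr1* mutant, called mutant or ca-*Acvr1(A11)* here. All embryos carry *P0-Cre*, a transgene active in the neural crest, on a mixed background. In mutants this recombinase switches on a constitutively active *Acvr1*, a type I BMP receptor, from 1 floxed copy of the A11 transgene, which controls lack. The genotype entered for each library contradicts its title, with the A11 transgene entered for the control libraries and *P0-Cre* alone for the mutant libraries. The titles were followed, and every direction below would turn round if the genotype entries were right. Whether a library holds 1 litter or several is not given in the sources used here.

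The libraries hold from 1956831 to 2408827 reads, and values are CPM, the reads of a gene scaled to the size of its library, so 1 read is worth from 0.415 to 0.511 CPM. A level of 3 reads, from 1.25 to 1.53 CPM, was taken as the floor. *Acvr1* was at 21.5 and 23.1 CPM in control against 24.1 and 12.6 CPM in mutant libraries and did not pass the threshold (log2 fold change -0.33 with a standard error of 0.28, limma adjusted p = 0.786). It is not known whether reads of the transgene fall on this row, so it does not check the labels. Standard errors given with log2 fold changes are those of limma, which draws the variance of each gene toward a trend over all genes. *Xist*, transcribed from the inactive X of females, was at 231 and 178 CPM in control against 298 and 287 CPM in mutant libraries (limma adjusted p = 0.103). The Y-linked *Ddx3y* was at 29.9 to 49.1 CPM, so each library holds RNA of both sexes. Of other Y-linked genes, *Uty* was at 14.8 and 16.0 against 10.8 and 10.3 CPM and *Kdm5d* at 16.9 and 15.1 against 9.55 and 15.0 CPM. For *Ddx3y* and *Eif2s3y* the groups overlap, and limma called none of these genes. The part of sex in the level of the X-linked *Eda2r* was not tested. Of 12 markers of facial mesenchyme, the tissue that neural crest cells form here, all had reads in every library and 11 were called lower in the mutant libraries, with summed levels of 1898 and 2395 against 993 and 1060 CPM. In bulk tissue fewer cells of a type and less RNA per cell cannot be told apart.

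The protein p53 is a transcription factor that damaged or stressed cells stabilize, and its targets either stop the cell cycle or lead the cell to die. Some of the death targets are receptors of the TNF receptor superfamily, which bind a ligand from outside the cell. Some of these receptors, such as the product of *Tnfrsf10b*, but not all of them, pass the signal through adaptors to caspases. Others act inside the cell, at the endoplasmic reticulum, in the nucleus or on a caspase scaffold. Excess p53 activity in the neural crest is known to disturb formation of the face.

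The stretch before the start of *Eda2r* is shown because this gene had the largest log2 increase in the mutant libraries among the genes tested. The 30 bases around the p53 consensus unit in *Aen* and *Ei24* are shown because these are the members whose promoter window holds the unit. A p53 response element is a pair of such units of 10 bases. The windows, which reach from 250 bases before to 50 bases after a start, are those of RefSeq on GRCm38.p6, and 5 of the 7 genes have at least 1 of them (*Aen*, *Ei24*, *Eda2r*, *Fas* and *Pidd1*).
*Eda2r*, chrX:97377217-97377459, minus strand, 243 bases that end before the gene start in GENCODE, capitals mark TATAAA: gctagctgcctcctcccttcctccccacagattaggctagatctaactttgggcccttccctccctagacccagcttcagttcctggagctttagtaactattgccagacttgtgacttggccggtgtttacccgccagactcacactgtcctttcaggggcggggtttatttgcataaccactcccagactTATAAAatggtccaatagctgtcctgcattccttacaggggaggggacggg
*Aen*, chr7:78895927-78895956, plus strand, in an untranslated first part of the transcript, capitals mark the p53 unit: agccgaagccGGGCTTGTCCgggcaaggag
*Ei24*, chr9:36797325-36797354, minus strand, in an untranslated first part of the longer transcripts, capitals mark the p53 unit: cgtgcggcccGGGCATGCCCagtgtgggcg
The p53 unit lies in 8.36% of all 32851 windows, and TATAAA, read on both strands, in 13.6%. The unit reads alike on both strands, since its consensus is its own reverse complement. No match was found in the windows of *Eda2r*, *Fas* and *Pidd1*, which says only that these letters are not in these 300 bases.

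*Eda2r* (Entrez 245527) encodes the ectodysplasin A2 receptor, a member of the TNF receptor superfamily. On GRCm38 it occupies chromosome X from 97333840 to 97377216, minus strand. Libraries of this kind read the end of the transcript, here an exon that spans 97333840 to 97337450. It had 5 and 9 reads in the control libraries, or 2.56 and 4.0 CPM. In the mutant libraries it had 92 and 64 reads, or 38.2 and 29.9 CPM. Both control values are low and near the floor, both mutant values are high, and the exact 95% counting intervals (Clopper-Pearson, covering counting error only) do not touch. The control intervals reach up to 5.96 and 7.58 CPM, and those of the mutant libraries reach down to 30.8 and 23.1 CPM. The ratio of the group means was 10.4, and on the log2(CPM + 1) scale the difference was 3.05 (standard error 0.31, n = 2 per group). None of the 12462 genes tested had a larger increase on this scale, which understates the change of a gene with so few control reads.

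*Tnfrsf10b* (Entrez 21933, chromosome 14 from 69767472 to 69784411) encodes the mouse death receptor for TRAIL, whose death domain recruits the adaptor FADD. Its values were 13.8 and 7.10 CPM in control libraries, from 27 and 16 reads. They were 31.1 and 16.4 CPM in mutant libraries, from 75 and 35 reads. The groups do not overlap, but the lower mutant library is close to the higher control library, whose counting interval reaches up to 20.1 CPM. The replicates of each group lay well apart. The means were 10.5 ± 4.73 and 23.8 ± 10.4 CPM (SD, n = 2 per group). The log2 fold change was 1.11, with a standard error of 0.32 from limma but 0.62 from its own replicates. With single libraries left out the log2 fold change moved from 0.67 without mutant replicate 1 to 1.55 without mutant replicate 2.

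Of the ligands of these receptors *Eda* alone has values. *Eda*, whose A2 splice form binds EDA2R, was at 3.07 and 4.0 CPM in control against 5.81 and 3.74 CPM in mutant libraries, and the groups overlap. Counts per gene do not separate its splice forms. *Tnfsf10*, which encodes TRAIL, and *Fasl* have no row and were not analyzed here.

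*Perp* (Entrez 64058, chromosome 10 from 18845020 to 18857073) encodes a tetraspan membrane protein that takes part in p53-dependent death and is also a part of desmosomes, the cell contacts of epithelia. It was at 25.0 and 19.1 CPM in control libraries, from 49 and 43 reads. It was at 45.7 and 43.5 CPM in mutant libraries, from 110 and 93 reads. The groups do not overlap, nor do the counting intervals, which reach up to 33.1 CPM in the control and down to 35.1 CPM in the mutant libraries. The means were 22.1 ± 4.21 and 44.6 ± 1.52 CPM (SD, n = 2 per group), and the log2 fold change was 0.99 (standard error 0.22).

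The summed level of epithelial markers was also higher in both mutant libraries than in both control libraries. All 18 markers had reads in every library, and their summed level was 335 and 313 CPM in control against 491 and 467 CPM in mutant libraries, a ratio of means of 1.48 against 2.02 for *Perp*. Of the 18 genes 2 were called higher, the adhesion genes *Cdh1* and *Epcam* (log2 fold changes 0.78 and 0.72, limma adjusted p = 0.0145 and 0.0264). In all 15 had a log2 fold change above 0 and 3 below, the keratins *Krt14* (-0.25) and *Krt8* (-0.03) and the 14-3-3 gene *Sfn* (-0.07), named after their values were seen. As a share of that sum *Perp* was at 7.48% and 6.11% in control against 9.30% and 9.32% in mutant libraries. The part of the epithelium in the level of *Perp* was not tested. *Trp63*, the p53 relative that drives *Perp* in skin, was at 19.4 and 12.9 against 21.2 and 14.0 CPM, with overlapping groups. Of the desmosome list, 11 of 15 genes have a row, 9 were tested and none was called by limma, with 2 at an unadjusted p under 0.05. edgeR, DESeq2 and limma-voom on the recovered reads also called 0 of the 8 each tested. The 2 most abundant were *Pkp4* (log2 fold change 0.22) and *Dsp* (0.76, limma adjusted p = 0.0587).

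**Figure D1:**
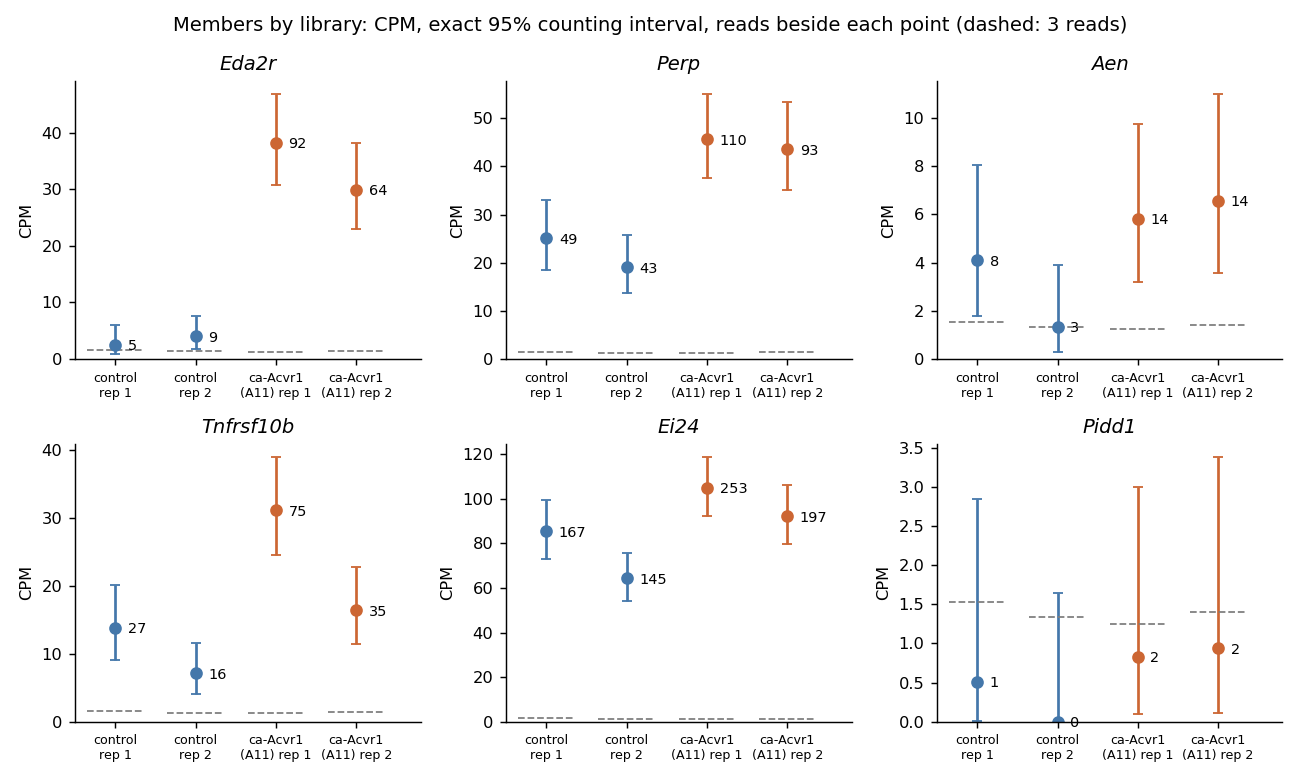
CPM of each member in each library (points, blue for control and orange for ca-*Acvr1(A11)*), with exact 95% counting intervals as bars, the number of reads beside each point and the level of 3 reads as a dashed line. *Eda2r* goes from 5 and 9 reads to 92 and 64, the points of all 6 genes are higher in the ca-*Acvr1(A11)* libraries, and all points of *Pidd1* lie below the dashed line.

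*Ei24* (Entrez 13663, chromosome 9 from 36779159 to 36797393) encodes a membrane protein of the endoplasmic reticulum first found as a gene induced by etoposide, and it is needed for autophagy. It was the most deeply covered member, with 167 and 145 reads in control and 253 and 197 in mutant libraries. The levels were 85.3 and 64.4 against 105 and 92.2 CPM. The groups do not overlap, but the counting interval of control replicate 1, which reaches up to 99.3 CPM, overlaps those of both mutant libraries. The means were 74.9 ± 14.8 and 98.6 ± 9.08 CPM (SD, n = 2 per group). The log2 fold change was 0.40 (standard error 0.17 from limma, 0.22 from its own replicates). In all, 1609 of the genes tested had a larger log2 fold change. The last exon of *Ei24* overlaps the antisense gene *Gm26787*, and whether reads were counted by strand is not given in the sources used here. Of 27 autophagy genes all were tested, limma called none and 2 reached an unadjusted p under 0.05, with a median log2 fold change of -0.07. edgeR, DESeq2 and limma-voom called 0 of them. The 2 most abundant, *Map1lc3b* and *Rb1cc1*, had log2 fold changes of -0.05 and -0.16.

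*Aen* (Entrez 68048, chromosome 7 from 78895854 to 78911209) encodes an exonuclease of the nucleus and nucleolus that promotes the breakdown of DNA in dying cells. It rests on very few reads, 8 and 3 in control and 14 and 14 in mutant libraries. The levels were 4.09 and 1.33 against 5.81 and 6.55 CPM, so control replicate 2 lies at the floor. The groups do not overlap, but the counting interval of control replicate 1, which reaches up to 8.06 CPM, holds both mutant values. The log2 fold change was 1.06, and it went from 1.62 without control replicate 1 to 0.50 without control replicate 2. Its standard error from limma, 0.44, was the widest of the tested members. By the replicates alone *Tnfrsf10b* varied more, at 0.62 against 0.57 for *Aen*. Of a list of DNA breakdown genes and exonuclease relatives, called the nuclease list though not all are nucleases, 10 of 13 were tested. Limma called none of these 10, and 2 had an unadjusted p under 0.05. edgeR, DESeq2 and limma-voom called 0 of the 8, 9 and 8 they tested. The 2 most abundant were *Eri1* and *Aifm1*, with log2 fold changes of 0.05 and -0.19.

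*Pidd1* (Entrez 57913, chromosome 7 from 141438113 to 141444025) encodes the scaffold on which caspase 2 is activated through the adaptor CRADD. It had 1 and 0 reads in control and 2 and 2 reads in mutant libraries, at most 0.936 CPM. All 4 values lie under the floor, no fold is given, and the gene was below the mean of 1 CPM needed for the test. A difference was not detectable at this depth. Its partners *Cradd* and *Casp2*, named for their role after their values were seen, were at 6.13 and 10.2 against 10.4 and 10.8 CPM and at 56.2 and 46.2 against 53.6 and 57.1 CPM. In *Casp2* the groups overlap, and in *Cradd* the lower mutant library exceeds the higher control library by less than 1 read is worth.

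Of the 6 genes with a row, all 6 had both mutant values above both control values, which holds for 21.6% of all listed genes. The 5 tested genes were all above 0 on the log2 scale. At an adjusted p under 0.05 from limma 2 of them, *Eda2r* and *Perp*, were called higher, where 0.305% of all genes tested were called higher, 0.594% lower and 0.899% in either direction. Nothing is read from these counts, since the members were chosen on this contrast. On reads recovered from the CPM values, the quasi-likelihood test of edgeR also called *Eda2r* and *Perp*, and it called 0.384% of its genes higher. DESeq2, which called 0.0749% higher, called *Eda2r* alone. *Perp* was also not called without control replicate 2 or without either mutant library. Without control replicate 1 the calls were 4, with *Tnfrsf10b* and *Ei24* added, and without mutant replicate 2 they were *Eda2r* and *Tnfrsf10b*. Control replicate 2 was the lowest library for *Perp*, *Aen*, *Tnfrsf10b*, *Ei24* and *Pidd1*, while for *Eda2r* it was control replicate 1.

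**Figure D2:**
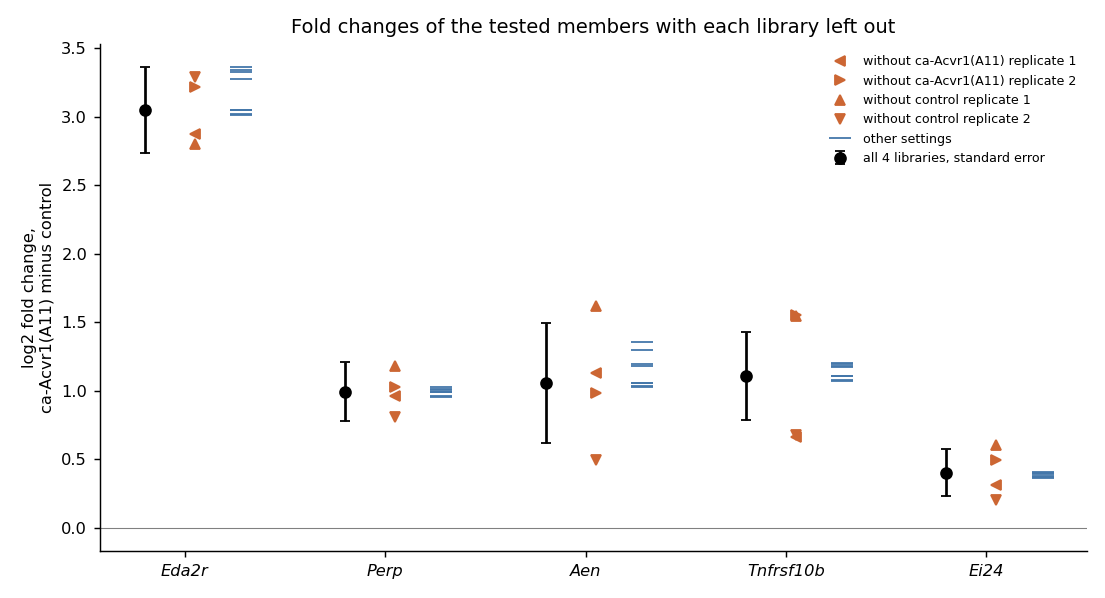
Log2 fold changes (ca-*Acvr1(A11)* minus control) of the 5 tested members from all 4 libraries, in black with the standard error from limma. Orange triangles leave each library out in turn, and blue bars are the other settings. *Eda2r* stays between 2.80 and 3.36, and *Aen* moves the most with a single library, from 0.50 to 1.62.

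*Trp53* itself was at 35.8 and 54.6 CPM in control against 37.8 and 32.8 CPM in mutant libraries, with overlapping groups (log2 fold change -0.32 with a standard error of 0.21, limma adjusted p = 0.701). Other targets of p53 were followed in a list of 33 genes that leaves the members out, of which 31 have a row and were tested. Limma called 8 of them higher and 0 lower, and 18 had an unadjusted p under 0.05, as had 9.55% of all genes tested. The median log2 fold change was 0.45 against 0.03 over all genes, with 26 genes above 0 and 5 below. Both mutant values were above both control values in 20 of the 31, against 21.9% of all genes tested, and below them in 3, against 16.8%. The list was written with earlier results of these libraries known and is not independent evidence of its direction.

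The 6 genes with the smallest p were *Cdkn1a*, *Ccng1*, *Zmat3*, *Phlda3*, *Mdm2* and *Trp53inp1*. The largest log2 fold changes of the list were 2.48 for *Cdkn1a*, the cell cycle inhibitor p21, and 1.98 for *Ccng1*, which encodes cyclin G1. *Phlda3*, an inhibitor of AKT, rose from 12.3 and 7.55 to 26.6 and 29.0 CPM (log2 fold change 1.43 with a standard error of 0.28, limma adjusted p = 0.00639). *Mdm2*, the ubiquitin ligase that removes p53, rose from 88.4 and 62.6 to 137 and 123 CPM (log2 fold change 0.79, limma adjusted p = 0.0153). *Trp53inp1*, which acts in death and autophagy, rose from 52.6 and 51.5 to 98.4 and 82.4 CPM (log2 fold change 0.78, limma adjusted p = 0.0177). The groups of these 6 genes do not overlap. DESeq2 called 3 of the list, *Cdkn1a*, *Ccng1* and *Zmat3*, and without mutant replicate 1 limma called 4.

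The machinery around the death receptors was described in the same way. Of 23 other genes of the TNF receptor superfamily 12 have a row and 11 were tested, and limma called none, with 0 at an unadjusted p under 0.05 and a median log2 fold change of -0.02. Its 2 most abundant members were *Tnfrsf19*, at 56.2 and 44.8 against 58.1 and 55.2 CPM, and *Tnfrsf1a*, at 42.9 and 51.9 against 42.8 and 43.1 CPM. Of 19 TNF family ligands 7 have a row, 4 were tested and limma called none, with a median log2 fold change of 0.40. The unadjusted p was under 0.05 for 1 of them, *Tnfsf15*, named after its values were seen, which had 0 and 1 reads in control and 3 and 6 reads in mutant libraries. Besides *Eda* the most abundant was *Tnfsf9*, at 1.02 and 1.33 against 1.66 and 2.34 CPM. Of 32 adaptors, caspases and inhibitors 29 were tested, limma called none, and the unadjusted p was under 0.05 for 2, with a median log2 fold change of 0.04. *Xiap*, an inhibitor of caspases, was at a mean of 114 against 94.4 CPM (log2 fold change -0.28). On the recovered reads edgeR, DESeq2 and limma-voom called 0 of the 5 superfamily genes that each of them tested, and 0 of 24, 26 and 24 adaptors, caspases and inhibitors. Of the ligands edgeR and limma-voom tested 0 and DESeq2 1, which it did not call, so these tools give no check of that list.

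**Figure D3:**
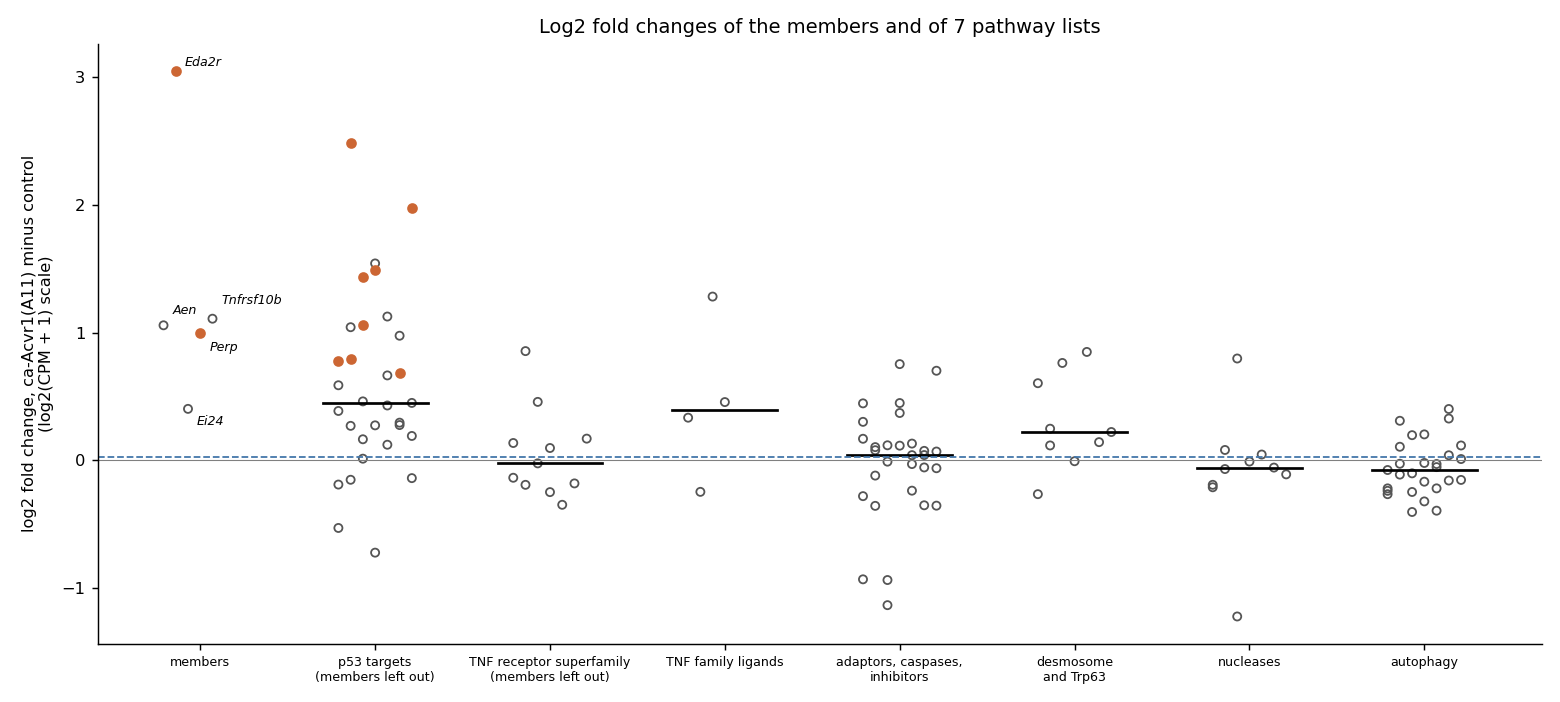
Log2 fold changes (ca-*Acvr1(A11)* minus control, log2(CPM + 1) scale) of the 5 tested members and of the tested genes of 7 pathway lists, filled where limma called the gene, with the median of each list as a black bar and that of all genes as a dashed line. The 8 filled points of the p53 list are all above 0, and the 6 other lists have no filled point.

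The nearest listed coding gene on each side of the 6 members gave 12 genes, 9 of them tested, and limma called none of them, with log2 fold changes from -0.13 to 0.69. *Tnfrsf10b* ends 579 bases from *Rhobtb2*, which is transcribed toward it and was at a mean of 20.4 against 22.9 CPM. *Isg20*, a relative of *Aen* 2215 bases past its end, had a mean of 0.767 against 1.06 CPM. The neighbors were looked up after the members' values were known.

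Likeness was measured as the root-mean-square difference between log2(CPM + 1) values, each centered on the gene's mean over the 4 libraries, among 8350 genes with a mean of at least 10 CPM. It weighs the size of the difference between the groups above all. Nearest to *Eda2r* were *Cdkn1a* (0.31), *Zfp365* (0.56) and *Arap2* (0.57). Nearest to *Tnfrsf10b*, the member with the next largest log2 fold change, were *9230114K14Rik* (0.04), *Pfkfb3* (0.22) and *Lrp2* (0.24). The last 3 share with *Tnfrsf10b* a control replicate 1 above control replicate 2. In *Eda2r* and the 3 genes nearest to it control replicate 2 is the higher. In all the genes named here mutant replicate 1 lies above mutant replicate 2.

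Markers of other cell types that the tissue could hold were followed by their sums. Neural markers summed to 2106 and 1843 CPM in control against 2613 and 2717 CPM in mutant libraries, with 1 of 12 called higher. Macrophage markers, which include genes of cells that clear dying cells, summed to 52.1 and 50.6 against 79.7 and 115 CPM, with 1 of 10 called higher, and *C1qa* was at 0 in control replicate 1. Endothelial markers summed to 219 and 226 against 228 and 215 CPM, erythroid markers to 7051 and 8503 against 6724 and 7229 CPM and muscle markers to 11.2 and 11.1 against 12.5 and 16.4 CPM, with none called of 11, 8 and 5 tested. The muscle genes *Myod1* and *Myog* have no row. The part of these cell types in the levels of the members was not tested.

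**Figure D4:**
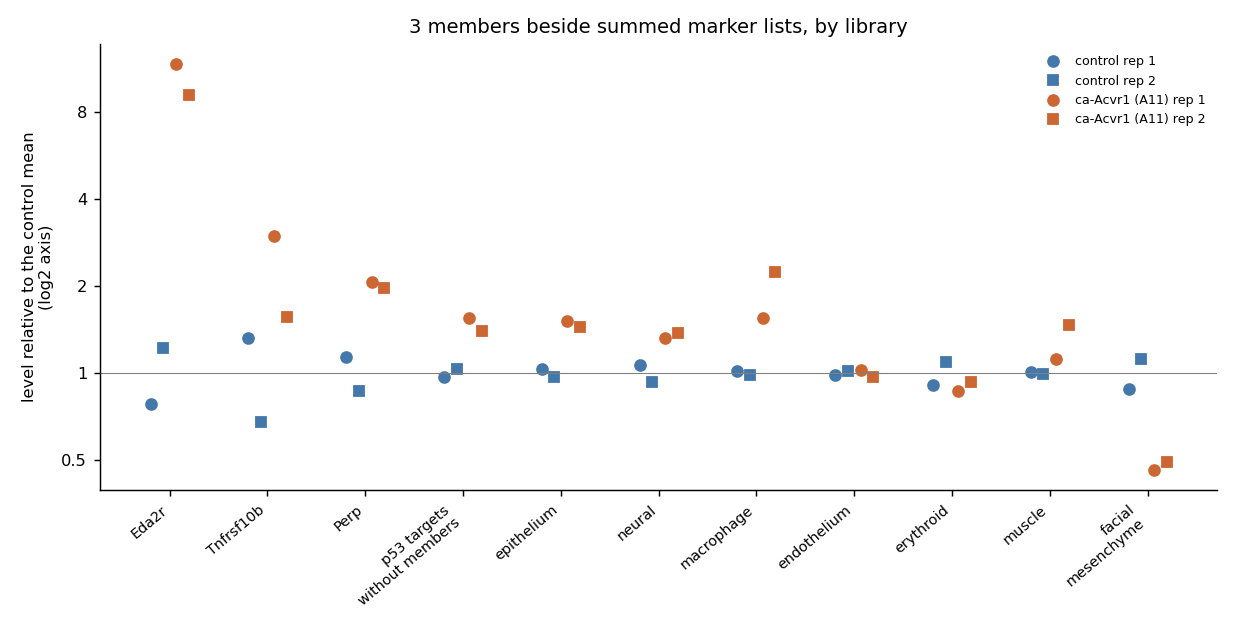
Levels of *Eda2r*, *Tnfrsf10b* and *Perp*, and summed levels of the p53 list and of 7 marker lists, in each library relative to the mean of the control libraries (log2 axis). *Eda2r* lies at 11.7 and 9.14 in the ca-*Acvr1(A11)* libraries, *Perp* at 2.07 and 1.97, the epithelial sum at 1.52 and 1.44 and the mesenchymal sum at 0.462 and 0.494.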

How the data were processed

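The authors extracted RNA with Trizol and made libraries with Lexogen's QuantSeq 3′ kit. The processing notes list STAR, featureCounts 1.6.4, DESeq2 and mm10. The authors deposited CPM values, reads divided by library size on a common scale, for 13577 genes in 4 columns, with 33470 empty lines. No per-sample column was left unused (0). The fewest reads of any gene in the table are 3, from no fewer than 2 libraries.

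Reads were recovered from the smallest step of each column. Within 0.02 reads, from 99.87% to 99.98% of values were whole, and 43 values in 22 genes were not. No member and no gene of the 7 pathway lists is among these, and of the marker genes 1 is, *Pdgfra*.

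Groups were compared with limma 3.58.1 on log2(CPM + 1), with its trend option. A mean of more than 1 CPM was required, which 12462 genes met, and p-values were adjusted over these by Benjamini and Hochberg with a threshold of 0.05. edgeR 4.0.16 (quasi-likelihood), DESeq2 1.42.0 and limma-voom were run on recovered reads, in R 4.3.3, and checked on simulated data. In the simulation all genes varied alike and only genes with a mean above 10 CPM were changed. It therefore does not cover changes at lower levels, such as those of *Aen* and *Pidd1*. No exact test over 2 libraries against 2 was used. Nothing says that replicates came from separate litters. The p-values rest on the spread between these libraries, which limma draws toward a trend over all genes tested. Python 3.11.15, scipy 1.17.1 and matplotlib 3.10.9 gave intervals and plots. Coordinates are from GENCODE M21 (GRCm38, the same assembly as mm10) and promoter sequences from RefSeq (GRCm38.p6).

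The members and lists were chosen with earlier results of these data known. The genes named are the members, *Acvr1* and *Trp53*, for each pathway list up to 6 called genes (smallest p first) or else its 2 most abundant, and for *Eda2r* and the member with the next largest change the 3 genes nearest in pattern. Of the genes this rule names, 1 is not reported here. Alternatives were a pseudocount of 0.1, no filter, at least 10 reads in every library, TMM and upper-quartile scaling, the other tests, a replicate block and each library left out.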

Additional observations from a re-analysis of the deposited data

How the results depend on the processing

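None of the member values changed sign under the alternatives, and 62 of 63 such values stayed within the spread between replicates. Much of this count was fixed beforehand. With 2 libraries per group, leaving 1 out cannot move a value beyond this spread, nor change its sign where the groups do not overlap. The fit with no filter, the filter on 10 reads and the replicate block repeat the main fold change of each member they test. The 1 value beyond the spread was that of *Eda2r* with a pseudocount of 0.1 (log2 fold change 3.36). DESeq2 called 8 genes higher and 31 lower against 38 and 74 from limma, 1 member against 2, and 3 genes of the p53 list against 8. With at least 10 reads in every library, which leaves *Eda2r* and *Aen* out of the test, 1 member was called. No TNF family ligand passed that filter or those of edgeR and limma-voom, so these gave no count for the ligands. The replicate block called 97 genes higher and 132 lower, 3 members (*Tnfrsf10b* added), 11 genes of the p53 list and 1 of the desmosome list, of which the fit with no filter also called 1. Same-numbered libraries share only a number, and their deviations from the group means correlated with r = 0.0671. With each library left out, which leaves a lone library assumed to vary like the other group, from 31 to 240 genes were called higher and from 54 to 225 lower, the most without control replicate 1, and 60 were called higher without control replicate 2. Members called ranged from 1 to 4, the p53 list from 4 to 10, and the desmosome and nuclease lists from 0 to 1 each. With these totals of reads, *Pidd1* and the control levels of *Aen* and *Eda2r* are limited by depth.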
